A study of Mus musculus with 6 samples.

Results

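Oxidative phosphorylation is carried out by complexes I to V of the mitochondrial inner membrane, and its subunits are encoded in both the nuclear and the mitochondrial genome. The members described here are 89 of the 9822 genes in the count tables. They comprise 74 nuclear protein-coding genes with symbols that begin with Ndufa, Ndufb, Ndufc, Ndufs, Ndufv, Uqcr, Cox4 to Cox8 or Atp5, or that are Sdha to Sdhd or Cyc1, and 15 mitochondrially encoded genes, namely 13 mRNAs and 2 ribosomal RNAs (rRNAs). Assembly factors (Ndufaf and Sdhaf) and 5 pseudogene rows with similar symbols were not counted. A further 15 protein-coding genes of the same rule in RefSeq, among them Cox7c, Ndufa12, Ndufab1 and Uqcr11, had no row in the count tables. The lack of a row is not read here as a lack of expression. Transcripts were measured by polyA RNA sequencing of purified platelets, the anucleate blood cells shed by megakaryocytes, from male mice of the BalB/c background. The mutant mice were Nxf1+/C587R, that is, 1 of their 2 copies of Nxf1, the gene of the main nuclear mRNA export receptor, carried the C587R change, and the controls were wild-type littermates, whose libraries also stand in another deposited series. Each of the 6 libraries came from a pool of platelet suspensions of 1 genotype, made from suspensions with more than 98% CD41+ events in flow cytometry (CD41 is a platelet surface protein), and 1 mutant and 1 wild-type pool belong to each of 3 batches, which the series' design text describes as separate preparation days. The age of the mice and the number in a pool were not given in the sources used here, and each p-value reflects only how far these pools scatter.

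Complex I passes electrons from NADH, and complex II from succinate, to ubiquinone. Complex III passes them on to cytochrome c, and complex IV from there to oxygen. Complexes I, III and IV pump protons, and complex V, the ATP synthase, uses the proton gradient to make ATP. Complex II is wholly nuclear-encoded, while complexes I, III and IV and the membrane sector of complex V hold both nuclear and mitochondrially encoded proteins. Platelets keep mitochondria and their DNA, and they use both oxidative phosphorylation and glycolysis.

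Totals ranged from 25189231 to 29421549 counts per library. All 13 platelet markers examined (such as Pf4, Itga2b and Gp1ba) were present, and their summed level was 46318 to 50018 CPM (read counts scaled to a common library total, with TMM factors) in mutant pools and 35142 to 42012 CPM in wild-type pools. Both pools of batch 1 stood apart in red cell transcripts: 10 of 14 listed erythroid markers had rows, and their sum was 44683 and 51181 CPM in batch 1 against 5336 to 6175 CPM in the other pools. The sum of 11 B cell markers was 274 to 344 CPM in mutant pools and 350.0 to 469 CPM in wild-type pools, and that of 7 myeloid markers (of 12 listed) 1783 to 2094 and 1166 to 1606 CPM. No marker with a row was at 0 throughout, and 8 of 9 T cell markers summed to at most 26.8 CPM. The part of these other cells in the results below was not tested. In such bulk samples, fewer cells of a type and less RNA per cell cannot be told apart.

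Levels of the nuclear members spanned 3 orders of size, from 0.699 to 701 CPM per kilobase of gene length (mean of 6 libraries), with a median of 9.57, against 1.42 for all genes. Complex IV held the most abundant ones. Cox5a, a matrix-facing subunit, stood highest at 701 CPM per kilobase. Next came Cox6b1, on the intermembrane side, at 561, then Ndufa4, named for complex I but a subunit of complex IV and counted there, at 515, and Cox8a at 349. Ndufa1 led complex I (326), Atp5e complex V (269), Uqcrh complex III (97.5) and Sdhc complex II (17.6). The lowest member of each complex was Atp5g1 of complex V, which encodes the membrane ring subunit (0.699), Ndufs3, a core subunit of complex I (0.934), Uqcrb (1.36), Sdha (4.27) and Cox5b (4.56). The other genes of the ring subunit, Atp5g2 and Atp5g3, stood at 9.47 and 33.1 CPM per kilobase. The 5 members with the highest CPM made up 46.2% of the summed nuclear CPM, and the top 10 made up 65.2%.

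**Figure D1:**
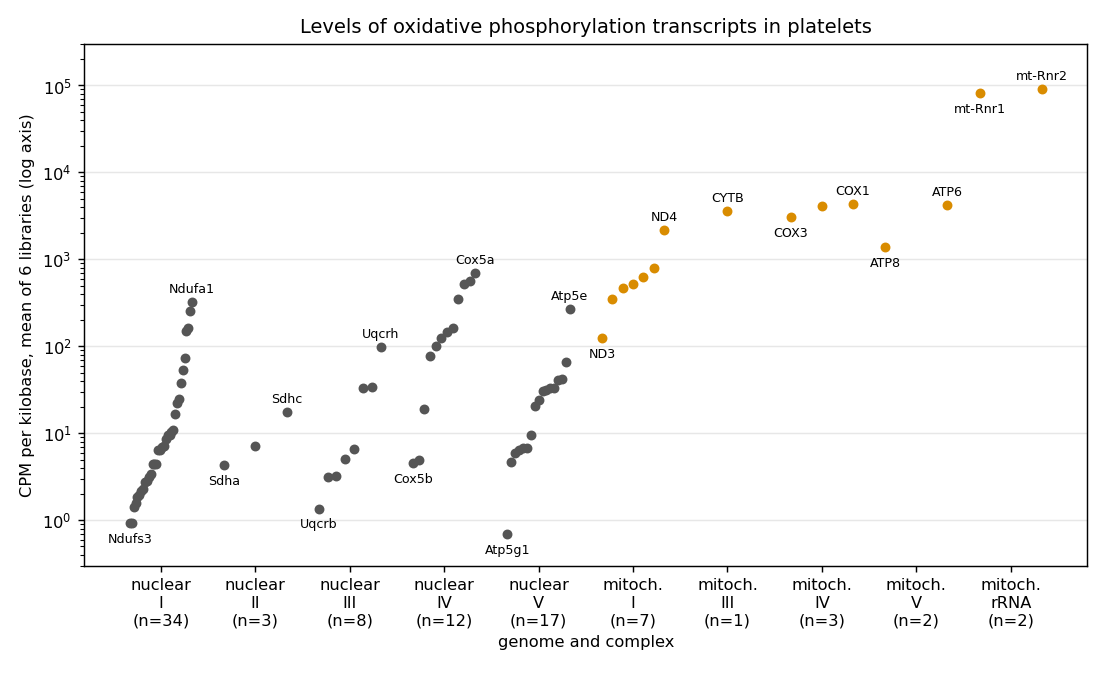
Level of each member as CPM per kilobase of gene length, on a log axis, by genome and complex. Each point is the mean of 6 libraries, and the highest and lowest member of each group are named. The nuclear members reach 701 in Cox5a, and the mitochondrial mRNAs run from 124 in ND3 to 4291 in COX1.

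Subunits that enter a complex in equal numbers had unequal transcript levels. Cox5a and Cox5b stand side by side in complex IV, yet there were only 0.00438 to 0.00673 Cox5b counts per Cox5a count in the mutant pools and 0.00444 to 0.00580 in the wild-type pools. In complex I, the 7 nuclear core subunits, which carry the redox centres, had 0.934 to 16.7 CPM per kilobase, and the 27 accessory subunits 0.936 to 326. Genes of this family have many pseudogenes, and how multi-mapping reads were treated was not given in the sources used here. For 18 of the 74 nuclear members another annotated gene matched at least 100 bases at 95% identity or more. Their levels are thus uncertain, Uqcrb, Uqcr10, Cox6c, Atp5l, Atp5h and Atp5g1 among them. Only the 72 nuclear members with a GENCODE transcript could be searched, so matches of the others are not known. Cox5a, Cox5b, Ndufa1 and Atp5e had no such match. Such matches were also found for 9 of the 13 mitochondrial mRNAs, since nuclear genomes hold copies of mitochondrial DNA. Exons of 28 of these 72 nuclear members also share bases with another annotated gene, and the TruSeq kit used does not mark strand.

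Between genotypes, 10 members were higher and 4 lower in mutant platelets, and 75 did not pass (quasi-likelihood test of edgeR, threshold 0.05 for p adjusted by Benjamini-Hochberg over all 9822 genes). The higher members were Ndufb7, Ndufb9, Ndufv3, Ndufb8 and Ndufa3 of complex I, Uqcrq of complex III, Cox6c of complex IV, and Atp5mpl, Atp5j2 and the mitochondrial ATP8 of complex V. The lower ones were Ndufs4, Uqcrfs1, Uqcr10 and Atp5e. For the 74 nuclear members this is 12.2% higher and 5.41% lower, where 12.9% and 9.16% of all genes tested were called. The median log2 fold change (mutant over wild type) was 0.02 for nuclear members and -0.04 for all genes. This order depended on level. Where the average level reached 10 CPM, the nuclear median was 0.10 and lay below that of all genes, 0.15. At lower levels the medians were -0.10 for nuclear members and -0.12 for all genes. Log2 fold changes of nuclear members lay between -0.61 and 0.64, so none changed by 2-fold. Mutant and wild-type pools did not overlap for 16 nuclear members with the mutant higher and 7 with the mutant lower, where 20.4% and 15.9% of all genes did not overlap. Summed over the 74 genes, nuclear members stood at 3395, 3263 and 2801 CPM in mutant pools and 3266, 3311 and 2674 CPM in wild-type pools, so the groups overlapped.

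Scaling, level and the fit moved these counts. Of the 39 nuclear members with a mean of at least 10 CPM, 8 were higher (20.5%) and 3 lower (7.69%), against 29.3% and 12.6% of all 3017 genes at that level. Of the 35 under 10 CPM, Ndufb8 was the only one higher and Uqcrfs1 the only one lower (2.86% each), against 5.60% and 7.63% of all genes at that level. With the batch as a replicate block, 26 members were higher and 11 lower, of which 21 (28.4%) and 11 (14.9%) were nuclear, where 22% and 18% of all genes were called, and all 14 members kept their call. The share of nuclear members called higher thus lay below that of all genes without the block and above it with the block. Among genes of at least 10 CPM the blocked shares were 46.2% of nuclear members and 47% of all genes, and no test of these shares was run. With library size alone as the scaling, 10 members were higher and 6 lower, and 9 of the 14 kept their call. Leaving out mutant pool 2 had the largest effect of any single pool, with 2 members higher and 1 lower, and without mutant pool 1 there were 3 and 5. Without wild-type pool 1 the counts were 6 and 4, without wild-type pool 2 they were 6 and 2, without wild-type pool 3 they were 6 and 7, and without mutant pool 3 they were 15 and 4. Without both pools of batch 1, where red cell transcripts were high, 2 members were higher and 2 lower, and without batch 2 the counts were 2 and 0. Calls over all genes moved as well, from 1266 higher and 900 lower with all 6 libraries. They were 706 and 785, 654 and 728, and 1291 and 985 without mutant pools 1, 2 and 3. Without wild-type pools 1, 2 and 3 they were 903 and 819, 910 and 795, and 1094 and 975. Without batch 1 they were 585 and 607, and without batch 2 they were 485 and 520.

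**Figure D2:**
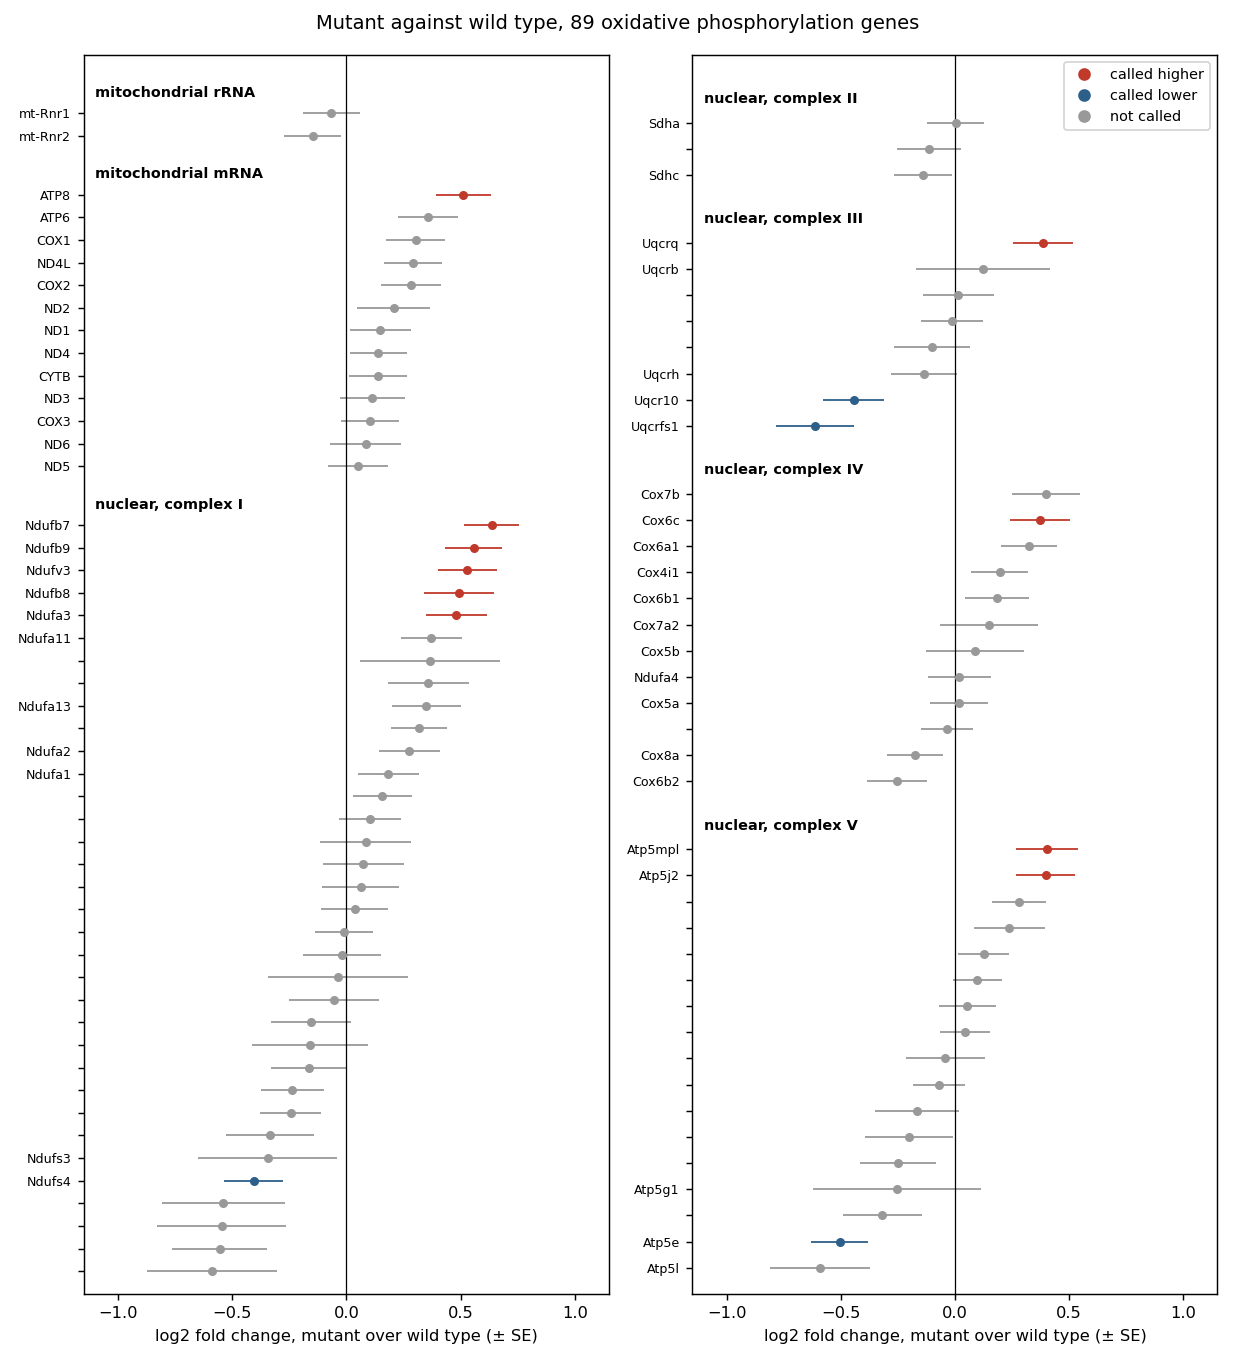
Log2 fold change of all 89 members, mutant over wild type, with SE bars, by genome and complex. Red points passed the edgeR test as higher, blue points as lower, and grey points did not pass, and members chosen by the rule for named genes carry their symbol. The highest value is that of Ndufb7 (0.64) and the lowest that of Uqcrfs1 (-0.61).

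Of the 34 nuclear complex I members, 5 accessory subunits were higher (14.7%) and 1 was lower (2.94%), where 12.9% and 9.16% of all genes were called. Ndufb7 and Ndufb9 are accessory subunits of the membrane arm. Ndufb7 (chromosome 8, 83566758 to 83571623, mm10) stood at 27, 25.1 and 21.9 CPM in the mutant pools of batches 1, 2 and 3 and at 15.9, 16.8 and 14.9 CPM in the wild-type pools. Every mutant pool lay above every wild-type pool, the log2 fold change was 0.64 with an SE of 0.12 and an adjusted p of 0.00067, and the gene was called in 23 of 23 alternatives. Ndufb9 was found at 43.3, 44.2 and 36.3 CPM in the mutant pools of batches 1, 2 and 3 and at 30.2, 29.8 and 24.3 CPM in the wild-type pools. These groups did not overlap either, with a log2 fold change of 0.56 with an SE of 0.12 and an adjusted p of 0.00269 and within-batch log2 ratios of 0.52, 0.57 and 0.58. It lost its call only without batch 2 (adjusted p = 0.0775 by edgeR). Another gene annotated on the same strand shares 19.5% of its exonic bases. Ndufv3, an accessory subunit of the NADH-oxidising module, was measured at 18.6, 19.2 and 15.6 CPM in mutant pools and 12.6, 13.4 and 11 CPM in wild-type pools, again with no overlap, and its log2 fold change was 0.53 with an SE of 0.13 and an adjusted p of 0.00509.

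Ndufb8, of the membrane arm, and Ndufa3, a small accessory subunit, completed the higher group. Ndufb8 had 7.42, 7.76 and 6.45 CPM in mutant pools and 4.60, 5.61 and 5.14 CPM in wild-type pools (log2 fold change 0.49 ± 0.15 SE, adjusted p = 0.0247). Ndufa3 had 120.3, 108 and 84.9 CPM in the mutants and 79.3, 80.1 and 65.1 CPM in the wild types (log2 fold change 0.48 ± 0.13 SE, adjusted p = 0.0127). For both, the lowest mutant pool lay above the highest wild-type pool. Ndufs4, an accessory subunit whose loss disrupts the electron input end of complex I and causes Leigh syndrome in people, was the 1 member of this complex that fell. It stood at 222, 198 and 169.7 CPM in the mutant pools of batches 1, 2 and 3 and at 284, 282 and 216 CPM in the wild-type pools. Its groups overlapped, because mutant pool 1 lay above wild-type pool 3, but within each batch the mutant was lower, by log2 ratios of -0.36, -0.51 and -0.34, and the log2 fold change was -0.41 with an SE of 0.13 and an adjusted p of 0.0289. Leaving out 1 pool ended calls as follows, with the adjusted p of edgeR in brackets: without mutant pool 1 for Ndufv3 (0.0504), Ndufb8 (0.128) and Ndufa3 (0.186), without mutant pool 2 for Ndufv3 (0.078), Ndufb8 (0.182), Ndufa3 (0.108) and Ndufs4 (0.0668), without mutant pool 3 for Ndufs4 (0.108), without wild-type pool 1 for Ndufb8 (0.138) and Ndufs4 (0.0957), without wild-type pool 2 for Ndufb8 (0.0509) and Ndufs4 (0.0802). In other alternatives, Ndufv3 and Ndufa3 did not pass without batch 1 or 2 (adjusted p from 0.0905 to 0.203). Ndufb8 did not pass with library size alone, or without batch 1 or 2 (adjusted p from 0.139 to 0.289). Ndufs4 did not pass with DESeq2 size factors as the scaling, with length and GC correction, or without batch 1 or 2 (adjusted p from 0.0553 to 0.214).

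None of the 7 nuclear core subunits of complex I passed (0 of 7 by edgeR and by DESeq2, 2 at an unadjusted p under 0.05 by edgeR). Of all genes, 12.9% were called higher and 9.16% lower. The median log2 fold change of the core subunits was -0.17, against 0.07 for the 27 accessory subunits. Mean levels of the core subunits were low, from 0.878 to 12.7 CPM, while accessory subunits reached 228 CPM. Among all genes under 10 CPM, 5.60% were higher and 7.63% lower, with a median of -0.12. The difference between core and accessory subunits was not tested. Ndufv1, which binds NADH, was measured at 2.39, 1.84 and 2.86 CPM in mutant pools and 2.90, 3.41 and 4.10 CPM in wild-type pools. Its groups did not overlap, at a log2 fold change of -0.56 with an SE of 0.21 and an adjusted p of 0.062, and it passed with the replicate block (adjusted p = 0.00193 by edgeR). Ndufs7 lay the other way, at 13.7, 15.4 and 13.1 CPM in the mutants and 11, 11.4 and 11.4 CPM in the wild types (log2 fold change 0.32, adjusted p = 0.0745), also without overlap, and passed with the block (0.00156). Ndufa11, an accessory subunit of the membrane arm, was at 27.8, 25.7 and 23.5 CPM in the mutants and 21.4, 22.2 and 16 CPM in the wild types, just outside the threshold (log2 fold change 0.37 ± 0.13 SE, adjusted p = 0.0505), and passed with the block (5.09e-06). So did, with the log2 fold change and the blocked adjusted p in brackets, Ndufa2 (0.28, 0.000241), Ndufa13 (0.35, 0.000314) and Ndufa1 (0.18, 0.016). For Ndufs5, a pseudogene row had more counts than the gene: Ndufs5-ps stood at 8.58 ± 1.62 CPM in mutant pools and 5.94 ± 0.373 CPM in wild-type pools (SD, n = 3 each) and a log2 fold change of 0.53 with an SE of 0.16 and an adjusted p of 0.0206, and Ndufs5 at 4.11 ± 0.569 CPM in mutant pools and 3.21 ± 0.269 CPM in wild-type pools (SD, n = 3 each) and a log2 fold change of 0.36 with an SE of 0.18 and an adjusted p of 0.168, passing with the block (0.036). Reads of these near-identical sequences may be split between the rows.

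Complex II was represented by Sdha, Sdhb and Sdhc, and none passed by edgeR or DESeq2, with 0 at an unadjusted p under 0.05. Of all genes, 12.9% were called higher and 9.16% lower by edgeR. Sdha, the succinate-oxidising flavoprotein, had 11.2, 12.5 and 13 CPM in mutant pools and 12.2, 11.8 and 12.6 CPM in wild-type pools, with overlapping groups and a log2 fold change of 0.00 with an SE of 0.12 and an adjusted p of 0.99. Sdhb and Sdhc had log2 fold changes of -0.11 and -0.14, and neither passed with the replicate block.

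Among the 8 nuclear complex III members 1 was higher (12.5%) and 2 were lower (25%), where 12.9% and 9.16% of all genes were called. Uqcrfs1 encodes the Rieske iron-sulphur protein, a redox-active subunit of the complex. It lay at 3.21, 3.10 and 3.45 CPM in the mutant pools of batches 1, 2 and 3 and at 4.68, 4.41 and 5.81 CPM in the wild-type pools. The groups did not overlap, and the log2 fold change, the lowest of all members, was -0.61 with an SE of 0.17 and an adjusted p of 0.0133. The small subunit gene Uqcr10 was at 13.9, 11.7 and 11.8 CPM in mutant pools and 17.2, 19.2 and 14.4 CPM in wild-type pools (log2 fold change -0.44 ± 0.13 SE, adjusted p = 0.0214), with every mutant pool below every wild-type pool. Another annotated gene, not a pseudogene, shares a near-identical stretch with Uqcr10, so its level is uncertain. Uqcrq, another small subunit, went the other way without overlap, from 15.8, 15.6 and 13.1 CPM in wild-type pools to 22.1, 19.2 and 16.9 CPM in mutant pools of batches 1, 2 and 3, and its log2 fold change was 0.39 with an SE of 0.13 and an adjusted p of 0.0388. It was called in 10 of 23 alternatives. Cyc1, which encodes cytochrome c1, Uqcrc1, Uqcrc2, Uqcrh and Uqcrb had log2 fold changes between -0.14 and 0.12 and did not pass. With 1 pool left out, calls ended as follows (adjusted p of edgeR in brackets): without mutant pool 1 for Uqcrq (0.358), without mutant pool 2 for Uqcr10 (0.0749) and Uqcrq (0.173), without wild-type pool 1 for Uqcrq (0.0885), without wild-type pool 2 for Uqcr10 (0.0886) and Uqcrq (0.0983), without wild-type pool 3 for Uqcrfs1 (0.0599) and Uqcrq (0.104). In other alternatives, Uqcrfs1 did not pass with library size alone, or without batch 2 (adjusted p from 0.0544 to 0.0598). Uqcr10 did not pass with length and GC correction, or without batch 2 (adjusted p from 0.0855 to 0.296). Uqcrq did not pass with DESeq2 size factors as the scaling, with library size alone, with totals that leave out the mitochondrial genes, with totals that leave out the 10 most abundant genes, by DESeq2, by limma-voom, or without batch 1 or 2 (adjusted p from 0.0522 to 0.332).

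Complex IV had 1 called member of 12, Cox6c, which encodes a small membrane subunit. That is 8.33% higher and 0% lower, where 12.9% and 9.16% of all genes were called. Cox6c stood at 92.8, 83.6 and 70.1 CPM in the mutant pools of batches 1, 2 and 3 and at 68.4, 68.6 and 53.5 CPM in the wild-type pools. The groups did not overlap, and the log2 fold change was 0.37 with an SE of 0.13 and an adjusted p of 0.0478, the nearest to the threshold of the 14 called members. It was called in 11 of 23 alternatives, and without any 1 of mutant pools 1 and 2 and the 3 wild-type pools it did not pass (adjusted p = 0.38, 0.24, 0.0964, 0.0904 and 0.121 in that order, edgeR). In other alternatives, Cox6c did not pass with DESeq2 size factors as the scaling, with totals that leave out the mitochondrial genes, with totals that leave out the 10 most abundant genes, by DESeq2, by limma-voom, or without batch 1 or 2 (adjusted p from 0.0621 to 0.334). Cox6a1 (log2 fold change 0.32 ± 0.12 SE, adjusted p = 0.0673) did not overlap between groups and Cox7b (log2 fold change 0.40 ± 0.15 SE, adjusted p = 0.0655) did, and both passed with the block (1.19e-05 and 4.27e-06). Cox5a, the most abundant nuclear member, was close to equal, at 526, 492 and 449 CPM in mutant pools and 531, 516 and 401 CPM in wild-type pools (log2 fold change 0.02 ± 0.12 SE, adjusted p = 0.94).

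Several complex IV subunits exist as a widely expressed and a tissue-restricted isoform. Of the restricted ones looked for (Cox4i2, Cox6a2, Cox6b2, Cox7a1, Cox7b2, Cox8b, Cox8c and Ndufa4l2), only Cox6b2, known as the testis isoform of Cox6b1, had a row. It was not rare, with 74.1, 73.8 and 59 CPM in mutant pools and 86.1, 91.7 and 68.8 CPM in wild-type pools. Cox6b1 stood at 341, 324 and 239 CPM in the mutants and 284, 296 and 216 CPM in the wild types. By themselves neither passed the test (log2 fold change -0.25 ± 0.13 SE, adjusted p = 0.187 for Cox6b2 and log2 fold change 0.18 ± 0.14 SE, adjusted p = 0.402 for Cox6b1). Their ratio within a library, which needs no scaling, was 0.217, 0.228 and 0.247 Cox6b2 counts per Cox6b1 count in the mutant pools and 0.304, 0.310 and 0.318 in the wild-type pools. The highest mutant ratio thus lay below the lowest wild-type ratio. This pair was singled out after its values were seen, no test of the ratio was run, and 3 pools against 3 cannot go below 0.1 in an exact permutation test. With the replicate block, Cox6b2 was lower (adjusted p = 0.00104 by edgeR) and Cox6b1 higher (0.0208). The widely expressed Cox4i1, Cox7a2, Cox8a and Ndufa4 had log2 fold changes of 0.20, 0.15, -0.17 and 0.02 and did not pass. With the block, Cox4i1 was higher (adjusted p = 0.0101 by edgeR) and Cox8a lower (0.0253), and Cox7a2 and Ndufa4 did not pass.

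Of 17 nuclear complex V members 2 were higher (11.8%) and 1 lower (5.88%), where 12.9% and 9.16% of all genes were called. Atp5e encodes the epsilon subunit of the central stalk, and was by far the most abundant of them per length. It stood at 93.5, 79.5 and 103 CPM in the mutant pools of batches 1, 2 and 3 and at 145, 116 and 130.5 CPM in the wild-type pools. Every mutant pool lay below every wild-type pool, and the log2 fold change was -0.50 with an SE of 0.12 and an adjusted p of 0.0058. The catalytic subunit genes did not follow it: Atp5a1 (alpha) had 0.04, Atp5b (beta) 0.10, and Atp5c1 and Atp5d, the other stalk subunits gamma and delta, 0.05 and -0.04, and none of these passed. Atp5j2 and Atp5mpl encode small subunits of the membrane sector. Atp5j2 was at 24.3, 24.1 and 18.5 CPM in mutant pools and 17.4, 18 and 15.5 CPM in wild-type pools (log2 fold change 0.40 ± 0.13 SE, adjusted p = 0.0315). Atp5mpl was at 13.9, 12.7 and 11.8 CPM in the mutants and 11.2, 9.27 and 8.56 CPM in the wild types (log2 fold change 0.40 ± 0.14 SE, adjusted p = 0.04). Neither overlapped between genotypes, and they were called in 12 of 23 alternatives and in 11 of 23 alternatives, in that order. Atp5l, also of the membrane sector, had the lowest value of the complex without passing, -0.59 with an SE of 0.22 and an adjusted p of 0.0606, passed with the block as lower (0.000513), and 10 other annotated genes share a near-identical stretch with it. Calls that ended with 1 pool left out (adjusted p of edgeR in brackets) were as follows: without mutant pool 1 for Atp5j2 (0.249) and Atp5mpl (0.266), without mutant pool 2 for Atp5e (0.0524), Atp5j2 (0.259) and Atp5mpl (0.176), without wild-type pool 1 for Atp5j2 (0.106), without wild-type pool 2 for Atp5j2 (0.0756) and Atp5mpl (0.178), without wild-type pool 3 for Atp5j2 (0.0726) and Atp5mpl (0.112). In other alternatives, Atp5e did not pass with length and GC correction, or without batch 1 or 2 (adjusted p from 0.0647 to 0.135). Atp5j2 did not pass with library size alone, with totals that leave out the mitochondrial genes, with totals that leave out the 10 most abundant genes, by DESeq2, or without batch 1 or 2 (adjusted p from 0.0556 to 0.293). Atp5mpl did not pass with DESeq2 size factors as the scaling, with upper-quartile scaling, with library size alone, with totals that leave out the mitochondrial genes, with totals that leave out the 10 most abundant genes, by DESeq2, or without batch 1 or 2 (adjusted p from 0.0549 to 0.343).

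**Figure D3:**
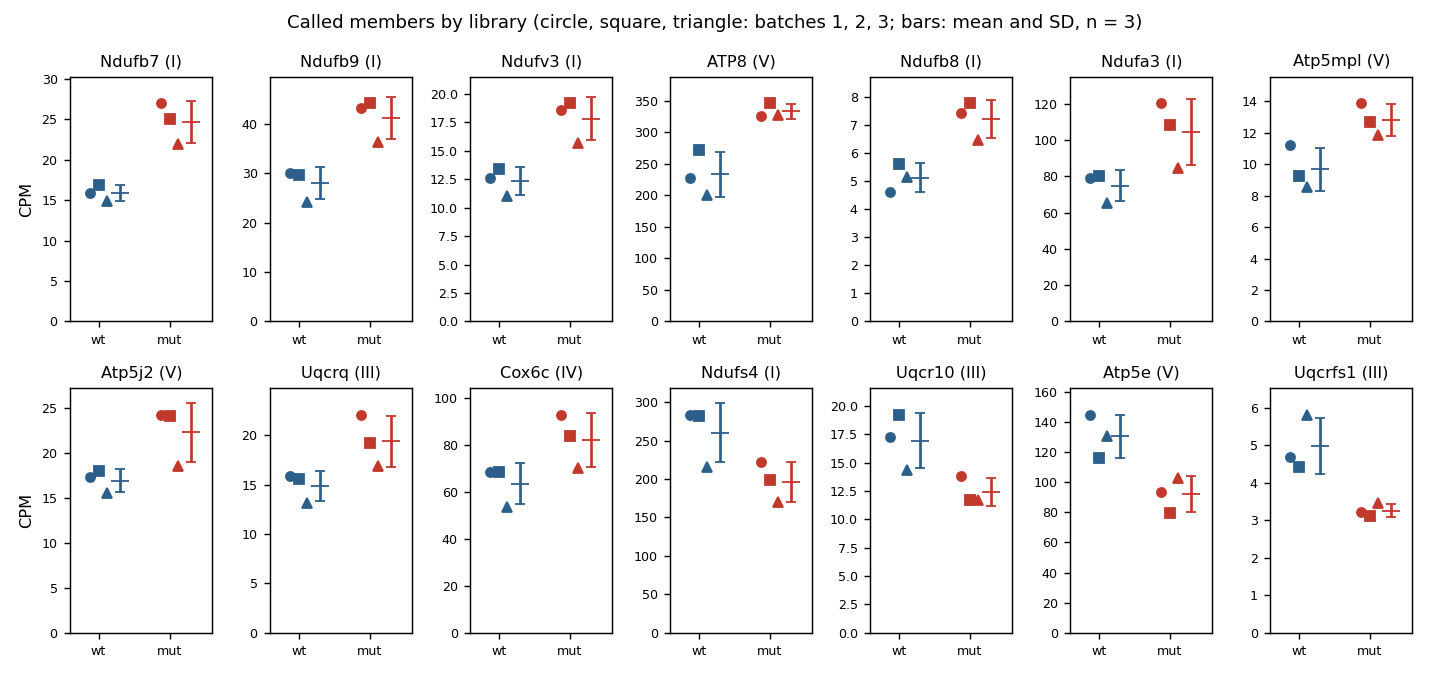
CPM of the 14 members that passed the edgeR test, in each library, ordered by log2 fold change from highest to lowest. Circles, squares and triangles are batches 1, 2 and 3, bars give mean and SD (n = 3), and each axis starts at 0. Mutant and wild-type pools are separate in every panel other than that of Ndufs4.

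Promoter windows (250 bases before to 50 after the start, RefSeq, GRCm38.p6, first listed start of each gene) were available for 59 nuclear members and were searched on both strands for motifs of 3 factors known from respiratory genes, none of which contains another. The NRF1 motif GCGCNTGCG occurred in 18 of 59 windows (30.5%) and in 15.1% of the 7606 windows of genes in the tables. The ETS motif CCGGAAG, read by GABPA, was found in 14 (23.7%, against 20%), and AAGATGGC, a YY1-type motif that can span the start codon, in 8 (13.6%, against 5.29%). Windows were at hand for 5 higher and 4 lower nuclear members. AAGATGGC was in those of Ndufa3, Atp5j2 and Ndufb8, all higher, of Ndufs4, which was lower, and of 4 of 50 members that were not called. The NRF1 motif was in the window of 1 of the 9 called members, Uqcr10, and in 17 of the 50 others. With a further C at its 3′ end the NRF1 motif was found in 14 of 59 windows (23.7%, against 11.3%) and in 0 of the 9. These matches are descriptions of the letters in each window. For 2 members that rose and 2 that fell, the windows are shown 5′ to 3′ with matches to any of the motifs in capitals: Ndufb7 (chr8:83566508-83566807, plus strand), Ndufa3 (chr7:3617123-3617422, plus strand), Atp5e (chr2:174464052-174464351, minus strand) and Ndufs4 (chr13:114388045-114388344, minus strand).
Ndufb7: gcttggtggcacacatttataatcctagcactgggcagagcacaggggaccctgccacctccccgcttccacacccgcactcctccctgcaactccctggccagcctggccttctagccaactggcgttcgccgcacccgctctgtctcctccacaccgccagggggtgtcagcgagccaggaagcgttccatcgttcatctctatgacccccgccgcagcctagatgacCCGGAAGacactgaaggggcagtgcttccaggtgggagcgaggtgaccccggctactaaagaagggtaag
Ndufa3: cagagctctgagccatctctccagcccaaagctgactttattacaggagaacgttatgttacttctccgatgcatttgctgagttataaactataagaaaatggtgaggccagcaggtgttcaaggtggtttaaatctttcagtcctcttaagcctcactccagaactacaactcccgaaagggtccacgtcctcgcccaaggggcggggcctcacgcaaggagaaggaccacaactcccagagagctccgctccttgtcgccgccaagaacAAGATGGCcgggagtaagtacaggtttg
Atp5e: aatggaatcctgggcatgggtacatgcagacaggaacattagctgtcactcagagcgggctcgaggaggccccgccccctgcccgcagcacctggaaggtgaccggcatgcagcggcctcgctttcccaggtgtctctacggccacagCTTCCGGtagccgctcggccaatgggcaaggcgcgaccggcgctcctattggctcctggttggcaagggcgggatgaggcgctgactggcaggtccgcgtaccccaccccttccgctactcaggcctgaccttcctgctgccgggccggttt
Ndufs4: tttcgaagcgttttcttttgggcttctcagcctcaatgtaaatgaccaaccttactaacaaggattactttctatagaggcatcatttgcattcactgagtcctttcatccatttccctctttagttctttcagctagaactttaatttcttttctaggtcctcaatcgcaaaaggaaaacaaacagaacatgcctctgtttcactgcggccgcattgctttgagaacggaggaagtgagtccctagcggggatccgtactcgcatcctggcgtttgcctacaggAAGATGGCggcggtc

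The mitochondrial genome is copied into long RNAs that are cut into rRNAs, tRNAs and mRNAs, so its transcripts start from common precursors. In platelets its mRNAs far outnumbered those of the nuclear members, with 6.94 to 9.57 mitochondrial mRNA counts per nuclear member count over the 6 libraries. Per length, COX1 was highest (4291 CPM per kilobase), followed closely by ATP6 (4226) and COX2 (4096). CYTB, COX3 and ND4 were at 3564, 3099 and 2159. Other complex I transcripts were lower, from 789 in ND1 to 124 in ND3, with ND6, the only mRNA of the light strand, at 349. The rRNAs mt-Rnr2 and mt-Rnr1 stood at 90376 and 82157 CPM per kilobase.

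Within each library, mutant pools held 11.9, 12 and 14 mitochondrial mRNA counts per 100 mitochondrial rRNA counts, and wild-type pools 9.64, 10.1 and 9.96. Every mutant pool lay above every wild-type pool, with means of 12.6 ± 1.19 and 9.91 ± 0.254 (SD, n = 3 each), 1.28 times the wild-type value. This ratio is free of scaling, was computed after values of these genes were known, and was given no test. On the TMM scale the parts were less clear: the summed mRNAs were at 26878, 26431 and 26807 CPM in mutant pools and 22668, 26671 and 19279 CPM in wild-type pools, and the summed rRNAs at 225881, 219818 and 191238 CPM in the mutants and 235125, 262939.5 and 193601 CPM in the wild types, and both overlapped. Among the wild-type pools, pool 2 was the highest and pool 3 the lowest in each case.

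All 13 mRNAs had positive log2 fold changes with TMM scaling, from 0.05 in ND5 to 0.51 in ATP8, with a median of 0.15. Each reached a mean of at least 10 CPM, where the median of all 3017 genes was also 0.15, with 1926 of them positive. With library size alone as the scaling 12 of 13 were positive, the exception being ND5. Without mutant pool 3 or wild-type pool 3 this was 10 of 13, without wild-type pool 1 it was 11, and without batch 3 it was 8. Medians within batches 1, 2 and 3 were 0.17, -0.08 and 0.55, so batch 2 did not share the direction. Only ATP8, a small subunit of the membrane sector of complex V, passed the test (7.69% of the 13, where 12.9% of all genes were called higher). It stood at 326, 346 and 327 CPM in the mutant pools of batches 1, 2 and 3 and at 228, 272 and 201 CPM in the wild-type pools. The groups did not overlap and the log2 fold change was 0.51 with an SE of 0.12 and an adjusted p of 0.00388. Its call was lost without mutant pool 2 (adjusted p = 0.0631 by edgeR) and without batch 1 (0.111). ATP6, the other mitochondrial subunit of complex V, was at 3385, 3243 and 3066 CPM in mutant pools and 2565, 2936 and 2071 CPM in wild-type pools, also without overlap (log2 fold change 0.36 ± 0.13 SE, adjusted p = 0.0569), and was called in 11 of 22 alternatives. COX1, the catalytic subunit of complex IV, was at 7119, 7250.2 and 7603 CPM in the mutants and 5812, 7017 and 4980.4 CPM in the wild types (log2 fold change 0.30 ± 0.13 SE, adjusted p = 0.102), without overlap, and COX2, which takes electrons from cytochrome c, at 3311, 3106 and 2806 CPM in the mutants and 2591, 2899.8 and 2095 CPM in the wild types (log2 fold change 0.28 ± 0.13 SE, adjusted p = 0.138), with overlap. With the replicate block, ATP8, ATP6, COX1, COX2 and ND4L were higher (highest adjusted p = 0.000111 by edgeR, COX2). They make up 38.5% of the 13 mRNAs, where this fit called 22% of all genes higher. It called 47% higher among the 3017 genes that reached 10 CPM, as all 13 did. The mRNAs thus lay above the first share and below the second, and these shares were not tested. DESeq2 with the block did not call COX1 (adjusted p = 0.0621) or ND4L (0.249).

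ATP8 and ATP6 lie on 1 mRNA, and the end of ATP8 is also the start of ATP6. The shared stretch is chrM:7927-7969 on the plus strand (GENCODE transcripts, GRCm38), 43 bases or 21.1% of the length of ATP8, shown 5′ to 3′ with the start codon of ATP6 in capitals because reads over it can come from either gene.
ATP8 end and ATP6 start: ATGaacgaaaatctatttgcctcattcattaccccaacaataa
There were 0.0963 to 0.107 ATP8 counts per ATP6 count in mutant pools and 0.0888 to 0.0971 in wild-type pools. The separate value of ATP8 is uncertain, since the assignment of reads over a shared stretch was not given. ND4L and ND4 form a second such pair on 1 mRNA, with a shared stretch of 7 bases, and there too the shorter gene had the larger log2 fold change (0.29 for ND4L and 0.14 for ND4).

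The complex I transcripts of the mitochondrial genome other than ND4L did not pass by edgeR with or without the block, and their mutant values were highest in batch 3. ND2 stood at 585, 601 and 883 CPM in mutant pools and 536, 723 and 534 CPM in wild-type pools, and ND6 at 162, 159 and 238 CPM in the mutants and 156, 209.8 and 163 CPM in the wild types. For both genes mutant pool 3 was the highest of the 6, and within batch 2 the mutant was the lower pool. Within-batch log2 ratios of ND2 were 0.12, -0.27 and 0.73. ND1, ND3, ND4 and ND5 had log2 fold changes of 0.15, 0.11, 0.14 and 0.05, each with overlapping groups. CYTB of complex III and COX3 of complex IV had log2 fold changes of 0.14 with an SE of 0.13 and an adjusted p of 0.497 and 0.10 with an SE of 0.13 and an adjusted p of 0.628. Neither rRNA passed without the block by edgeR or DESeq2, with 0 of 2 at an unadjusted p under 0.05: the log2 fold change of mt-Rnr1, the small one, was -0.07 with an SE of 0.13 and an adjusted p of 0.764, and the log2 fold change of mt-Rnr2, the large one, was -0.15 with an SE of 0.13 and an adjusted p of 0.454. Over the alternatives that of mt-Rnr1 ran from -0.18 to 0.08, so its sign was not fixed. In 4 of 21 alternatives mt-Rnr2 was called lower: with library size alone (adjusted p = 0.0143 by edgeR), without wild-type pool 3 (0.0305), without batch 3 (0.015) and with the block by DESeq2 (0.0476). The count of mt-Rnr1 per count of mt-Rnr2 was 0.550 to 0.590 in mutant and 0.518 to 0.549 in wild-type pools.

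**Figure D4:**
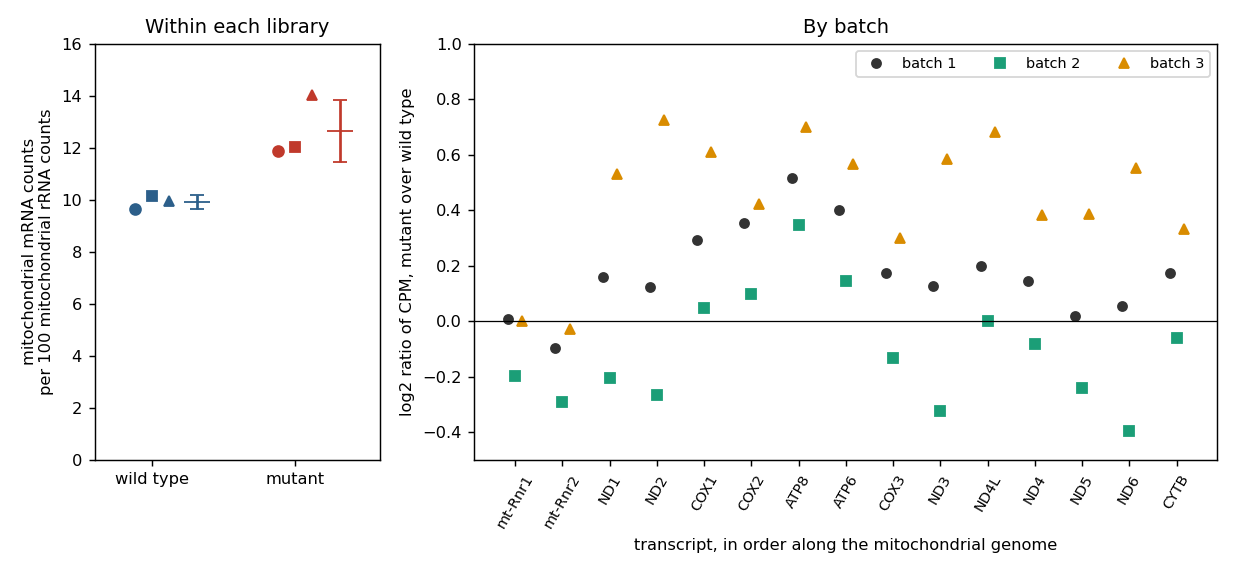
Left, mitochondrial mRNA counts per 100 mitochondrial rRNA counts in each library, with mean and SD (n = 3): the mutant pools lie between 11.9 and 14 and the wild-type pools between 9.64 and 10.1. Right, log2 ratio of CPM, mutant over wild type, of each of 15 transcripts within batches 1, 2 and 3, in their order along the mitochondrial genome. Batch 3 lies highest for every mRNA and batch 2 lowest.

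Most nuclear members are short, with a median gene length of 679 bases in the deposited tables, against 2781 for all genes. Among short genes of all kinds more were lower than higher in mutant platelets: of the 496 genes under 679 bases, 46 were higher (9.27%) and 139 lower (28%), with a median log2 fold change of -0.25. The 36 nuclear members among them had the reverse balance, with 8 higher (22.2%), 2 lower (5.56%) and a median of 0.05. These members were also more abundant, with a median of 31.1 CPM per kilobase against 10.2 for all genes under 679 bases. Shares matched for both length and level were not computed. Of the 38 longer nuclear members, Ndufv3 was higher, Ndufs4 and Uqcrfs1 were lower, and the median was 0.00, beside -0.04 for all longer genes. When each library was corrected for gene length, 17 nuclear members (23%) were higher and 1, Uqcrfs1 (1.35%), was lower, where 13% and 8.42% of all genes were called, and the median of nuclear members moved to 0.10. Atp5e (log2 fold change -0.28, adjusted p = 0.194 by edgeR), Uqcr10 (-0.23, 0.232) and Ndufs4 (-0.37, 0.0587) then no longer passed, while all 10 higher members did. The share of nuclear members called higher, below that of all genes before this correction, was above it afterwards. Among genes of at least 10 CPM, 35.9% of nuclear members were then higher and 0% lower, against 29% and 10.9% of all genes. The correction raised short genes of all kinds, and the median of all genes under 679 bases moved to -0.06. No test of these shares was run. With length and GC correction together 13 of 72 nuclear members were higher (18.1%) and 2 lower (2.78%), beside shares over all genes of 12.3% higher and 7.51% lower. The mean gene length per count, mitochondrial genes left out, was 2549 to 2719.6 bases in mutant and 2455 to 2588 bases in wild-type libraries, and within each batch it was the longer in the mutant. Its part in the calls of single members was not tested beyond this correction.

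**Figure D5:**
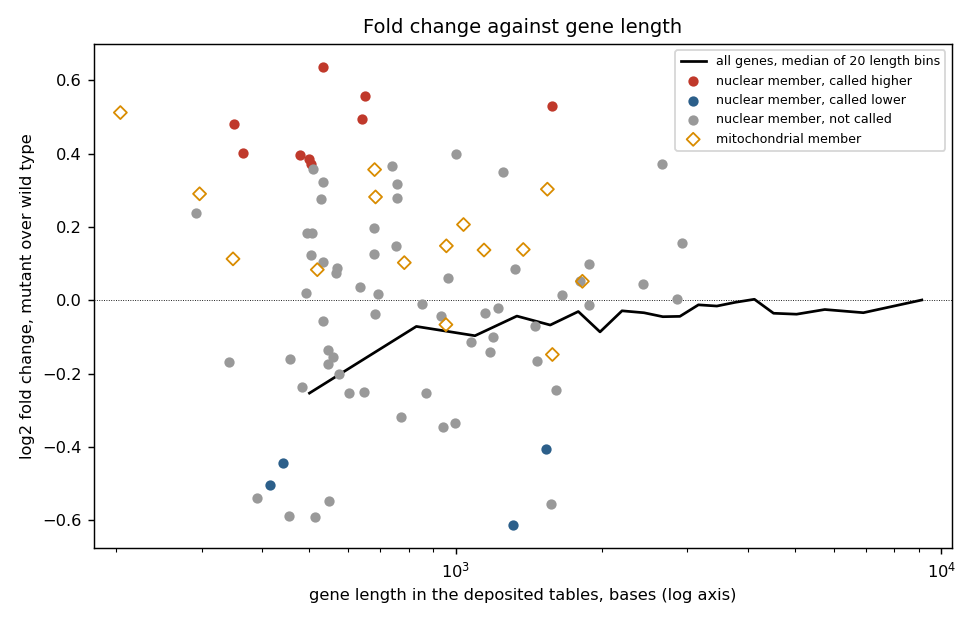
Log2 fold change, mutant over wild type, against gene length on a log axis. Filled points are nuclear members (red higher, blue lower, grey not passed), open diamonds are mitochondrial members, and the line joins the medians of all genes in 20 bins of about equal size. The line starts at -0.25 in the shortest bin, while 8 of the 9 higher nuclear members are shorter than 679 bases.

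Factors that assemble the complexes were examined beside their subunits. Of 37 assembly factor genes 3 were higher (8.11%) and 4 lower (10.8%), where 12.9% and 9.16% of all genes were called, with a median log2 fold change of -0.10 (edgeR as above; brackets give the log2 fold change). Both higher factors of complex V, Tmem242 (0.71, adjusted p = 0.000243) and Atpaf2, which helps to build the catalytic head (0.58, adjusted p = 0.00339), came from a list of 3. The remaining gene of that list, Atpaf1, lay the other way without overlap and did not pass (-0.29, adjusted p = 0.21). It was lower with the replicate block (adjusted p = 0.0485 by edgeR). Higd2a, of complex IV, was lower, at 21.4, 21.8 and 16.9 CPM in mutant pools and 35.3, 39 and 30.8 CPM in wild-type pools without overlap (-0.80, adjusted p = 0.00015), and so was the complex IV factor Cmc2 (-0.66, adjusted p = 0.0498). For complex I, Dmac1 was higher (0.39, adjusted p = 0.0282) and Ndufaf5 lower (-0.90, adjusted p = 0.0183). For complex II, Sdhaf1, which helps to insert iron-sulphur clusters, was lower (-1.04, adjusted p = 0.0434), at under 1 CPM in every pool. With the replicate block 7 of the 37 were higher (18.9%) and 6 lower (16.2%), against 22% and 18% of all genes. Of 4 complex III factors 0 passed by edgeR or DESeq2, with 0 at an unadjusted p under 0.05. Among the 7 called factors, Tmem242 and Higd2a were called in every alternative run for them. The other 5 lost their call with 1 pool left out, with the adjusted p of edgeR in brackets: without mutant pool 1 for Dmac1 (0.295) and Sdhaf1 (0.087), without mutant pool 2 for Atpaf2 (0.0567), Cmc2 (0.194), Dmac1 (0.189) and Sdhaf1 (0.129), without mutant pool 3 for Ndufaf5 (0.0779) and Sdhaf1 (0.0764), without wild-type pool 1 for Cmc2 (0.068), Dmac1 (0.0957), Ndufaf5 (0.0518) and Sdhaf1 (0.0629), without wild-type pool 2 for Cmc2 (0.141), Dmac1 (0.0654) and Sdhaf1 (0.108), without wild-type pool 3 for Dmac1 (0.0631) and Sdhaf1 (0.071). In other alternatives, Cmc2 did not pass with library size alone, by DESeq2, by limma-voom, with the replicate block by DESeq2, with length correction, with length and GC correction, or without batch 1 or 2 (adjusted p from 0.0533 to 0.468). Dmac1 did not pass with totals that leave out the mitochondrial genes, with totals that leave out the 10 most abundant genes, or without batch 1 or 2 (adjusted p from 0.0502 to 0.327). Ndufaf5 did not pass without batch 2 or 3 (adjusted p from 0.0615 to 0.0831). Sdhaf1 did not pass with length correction, with length and GC correction, or without batch 1, 2 or 3 (adjusted p from 0.0564 to 0.269).

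Other lists of the pathway are read against the same shares of all genes, 12.9% higher and 9.16% lower, or 22% and 18% with the replicate block. Of 19 genes for mobile carriers, porins and ubiquinone synthesis, 3 were higher (15.8%) and 0 lower: Gpd2, the mitochondrial glycerol-3-phosphate dehydrogenase, which feeds electrons to ubiquinone (0.98, adjusted p = 0.000151), the outer membrane porin Vdac3 (0.61, adjusted p = 0.000667) and Etfb, a subunit of the electron transfer flavoprotein (0.46, adjusted p = 0.0207). With the block 5 of the 19 were higher (26.3%) and 3 lower (15.8%). Gpd2 was at 10.6, 8.29 and 9.42 CPM in mutant pools and 5.57, 4.37 and 4.39 CPM in wild-type pools. Cycs, which encodes cytochrome c, did not pass (-0.79, adjusted p = 0.0834) but was lower with the block (adjusted p = 0.0362 by edgeR). Of 24 genes for mitochondrial DNA and RNA maintenance, Ptcd2, an RNA-binding protein, was the 1 called gene (0.86, adjusted p = 0.00106; 2 higher with the block), and the transcription factor Tfam (0.03, adjusted p = 0.949) did not pass. Of 9 regulators of respiratory genes 0 passed by edgeR or DESeq2, with 0 at an unadjusted p under 0.05 by edgeR, and 2 were lower with the replicate block. Of 14 genes of the tricarboxylic acid cycle, Ogdh was higher (0.38, adjusted p = 0.0182) and none lower, against 4 and 4 with the block (28.6% each). Gpd2, Vdac3 and Ptcd2 were called in every alternative run for them. The calls of Etfb and Ogdh ended with 1 pool left out (adjusted p of edgeR in brackets): without mutant pool 1 for Etfb (0.141) and Ogdh (0.122), without mutant pool 2 for Etfb (0.227) and Ogdh (0.209), without wild-type pool 1 for Etfb (0.06) and Ogdh (0.12), without wild-type pool 2 for Etfb (0.0589) and Ogdh (0.0963), without wild-type pool 3 for Etfb (0.0581). In other alternatives, Etfb did not pass with library size alone, or without batch 1 or 2 (adjusted p from 0.056 to 0.286). Ogdh did not pass with library size alone, with length and GC correction, or without batch 1 or 2 (adjusted p from 0.0627 to 0.343).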

How the data were processed

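The 6 deposited files give, per the file headers, an Entrez gene identifier, a gene length and a count of reads for each of 9822 genes in 1 library. The counts were made by the authors, and the submitters' processing notes name CASAVA 1.8.2, Subread, featureCounts and the mm10 build, while their settings, the strand option and the handling of multi-mapping reads were not given in the sources used here. Per the labels, the kit was TruSeq RNA v2, which does not mark strand, and polyA RNA was sequenced, so mitochondrial rRNA is counted as far as its short A tails were captured. Gene length (in bases) was deposited by the authors as another column, and its definition was not given in the sources used here.

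Identifiers were matched to RefSeq symbols (GRCm38.p6) and to GENCODE M21 for positions and near-identical stretches (blastn). Raw counts, without a further filter, were fitted with edgeR 4.0.16 in R 4.3.3 (TMM scaling, quasi-likelihood test, two-sided) on genotype over all 6 libraries, with adjustment over all genes at 0.05, and the script was tested on simulated data. Alternatives were other scalings and filters, DESeq2 1.42.0, limma-voom (limma 3.58.1), loess offsets on length and GC content (GC was known for 97.8% of members), a replicate block and left-out libraries. The labels' batches pair the libraries: log2 CPM relative to the genotype mean correlated at 0.520, 0.350 and 0.547 within batches 1, 2 and 3, and at -0.0358 or lower between batches. Deviations from a genotype mean cancel out over its 3 libraries, so the values between batches are not independent of those within batches. No pair of libraries of 1 genotype agreed within sampling noise. Named with values are all called members, up to 10 called only with the block by smallest p, the highest and lowest member of each complex and genome, all mitochondrial members, subunit isoforms, and up to 3 called genes of each pathway list. The promoters shown, Sdhb, Ndufs5, Ndufs7, Ndufv1, the stalk and core subunits, Uqcrc1, Uqcrc2, Cyc1, Cycs, Tfam and the pseudogene were added after their values were seen. So were Atp5g2 and Atp5g3. One member is not reported here by name. The members, lists and rules were chosen with earlier results of these data known.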

Additional observations from a re-analysis of the deposited data

How the results depend on the processing

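Other scalings left the number of members called higher between 5 and 10 and the number lower between 3 and 6, with 5 higher when totals and scaling left out the mitochondrial genes and 6 when they left out the 10 most abundant genes. DESeq2 called 6 higher. With the replicate block, 26 members were higher and 11 lower by edgeR (3929 of all genes called, against 2166), and 21 and 8 by DESeq2. Length correction gave 21 higher and 1 lower, length and GC correction 19 and 2, and length correction with the replicate block 33 and 7 (4068 of all genes). Leaving out 1 library gave 2 to 15 members higher, 1 to 7 lower and 1382 to 2276 of all genes called, and leaving out 1 batch gave 2 to 20 higher, 0 to 7 lower and 1005 to 2396 of all genes (1192 without batch 1). The log2 ratio of summed nuclear CPM, 0.032, was -0.045 with library size alone as the scaling, -0.069 to 0.11 without 1 library and -0.021 to 0.027 without 1 batch, so its sign depends on these choices. The cause was not tested. No called gene changed its direction in any alternative run for it. The summed level of the mitochondrial genes could not be computed in totals that leave them out. Low members rest on few counts, and the part of depth in how few of them were called was not tested.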
